A study of Mus musculus with 6 samples.

Results

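The genes described here encode the proteasome, the barrel-shaped protease that degrades ubiquitin-tagged proteins. They were the rows of the 12 deposited tables whose symbol starts with Psma, Psmb, Psmc, Psmd, Psme, Psmf or Psmg and ends in a number, 48 of the 23538 genes measured. The choice used names and no measured value. The study set sorted bone marrow cells of Mof heterozygous mice (genotype label Mof -/+) against those of wild-type mice. Mof, gene symbol Kat8, is the acetyltransferase of lysine 16 of histone H4. In each genotype 6 populations were sorted with 15 cells per sort. Blood stem cells (HSC) head the series, MPP2, MPP3 and MPP4 are multipotent progenitors, CMP are myeloid progenitors, and MEP give rise to megakaryocytes and red cells. HSC and the MPP populations were gated as lineage-negative, Sca-1-positive, cKit-positive cells and told apart by CD34, Flt3, CD48 and CD150, and CMP and MEP were Sca-1-negative cKit-positive cells told apart by CD34 and CD16/32. Each of the 12 groups had 3 libraries, 36 in all, made with CEL-Seq2, which counts the 3' ends of transcripts. No age, strain or drug treatment is given in the labels, nor how the heterozygous allele was made.

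The 20S core of the proteasome is a stack of alpha rings that gate the barrel and beta rings that hold the proteolytic sites. The 19S cap recognises ubiquitin chains, and its ATPases unfold the protein and thread it into the core. In blood cells the catalytic beta subunits Psmb5, Psmb6 and Psmb7 can be replaced by the immunoproteasome subunits Psmb8, Psmb9 and Psmb10, which interferon induces and which favour peptides that fit class I molecules. Proteasome genes are known to be raised together by the transcription factor Nfe2l1 when degradation falls short, and stem cell maintenance is known to depend on protein turnover.

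The libraries held 1577 to 123765 gene counts, and 6 held fewer than 15000. These were wild-type MPP2 replicates 1, 2 and 3, wild-type MPP3 replicates 1 and 2, and heterozygous HSC replicate 2. The 36 libraries were sequenced in 6 pools, each of 1 genotype, so genotype and pool cannot be told apart, and fewer cells and less RNA per cell cannot be told apart either. The labels do not tie the 3 libraries of a group to different animals. The p-values therefore reflect how far libraries of a group differ, which may be technical variation alone. Kat8 gave 11 counts over the 18 heterozygous libraries, against 12 over the 18 wild-type libraries, a CPM ratio of 0.539 (95% interval of counting error 0.216 to 1.33), too few counts to check the genotype labels. Defining markers followed most labels, with Dntt at 1992 and 1609 CPM, the counts of a gene scaled by the gene total of its library, in heterozygous and wild-type MPP4, Mpo at 2535 and 1597 CPM in CMP, and Car1 at 2050 and 1772 CPM in MEP. Hlf, an HSC marker, stood at 601 and 485 CPM in heterozygous and wild-type HSC. It also reached 490 CPM in heterozygous MPP3, beside 129 CPM in wild-type MPP3. The 7 HSC markers summed to 1089 to 1589 CPM in heterozygous MPP3 libraries and 0 to 816 CPM in wild-type ones. In heterozygous HSC libraries they summed to 1268 to 1817 CPM. Procr and Mecom were lower in heterozygous MPP3 (28.5 and 23.8 CPM) than in heterozygous HSC (66.7 and 93.4 CPM). The library labelled wild-type HSC replicate 3 went against its label: the 7 HSC markers summed to 32.7 CPM there and the 4 mature B cell markers to 3075 CPM. Wild-type MEP replicate 3 held 2354 CPM of CMP and granulocyte-monocyte markers, beside 106 and 286 CPM in replicates 1 and 2. Its MEP markers stood at 2393 CPM. Kit and Cd34 gave 0 CPM in wild-type MPP3 replicate 1, wild-type MPP4 replicate 3 and the shallow heterozygous HSC replicate 2. The 7 mature neutrophil markers, which no gate should keep, passed 10000 CPM in 1 heterozygous library (MEP replicate 3) and 6 wild-type libraries (MPP2 replicate 1, MPP3 replicates 1 and 3, MPP4 replicate 3, MEP replicates 2 and 3).

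The 48 genes together gave 11180 counts. Every library held some of these counts, but no single member was read in all libraries. The most was 35 libraries, as for Psmb1, and the fewest 3, for Psma8. Because CEL-Seq2 takes 1 tag per transcript end, levels were compared as CPM without dividing by transcript length. The 19S non-ATPase subunits supplied 24.7% of the counts (95% exact interval 23.9 to 25.5). The 20S alpha subunits supplied 21.3% (20.6 to 22.1) and the constitutive 20S beta subunits 18.5% (17.8 to 19.2). The activators and the inhibitor supplied 13.1% (12.4 to 13.7), the 19S ATPases 9.20% (8.67 to 9.75) and the immunoproteasome and thymus beta subunits 8.50% (7.99 to 9.03). The assembly chaperones were low, with 3.20% for those of the 20S core and 1.57% for those of the 19S cap. All such intervals cover counting error only.

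The highest level, as a mean over the 12 groups, was that of Psma7, a subunit of the alpha ring, at 302 CPM. Psme1, the alpha chain of the PA28 activator that opens the core gate, followed at 295 CPM, and the beta ring subunits Psmb4 and Psmb1 stood at 276 and 268 CPM. Psmb8, the immunoproteasome counterpart of Psmb5, came next at 240.1 CPM. The nuclear activator Psme3 (233 CPM), the alpha subunit Psma4 (205 CPM) and Psmd1 (204 CPM), the largest scaffold subunit of the 19S base, completed the first 8. At the low end, the testis alpha subunit Psma8 gave 4 counts in all, and the 19S chaperone Psmd9 gave 37. Both stayed outside the genotype test, and these with Psmd10 stayed outside the test across populations. Psmb11, the beta subunit of the thymus proteasome in cortical epithelial cells, nevertheless gave 114 counts in 30 of 36 libraries, and no annotated gene overlaps it.

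**Figure D1:**
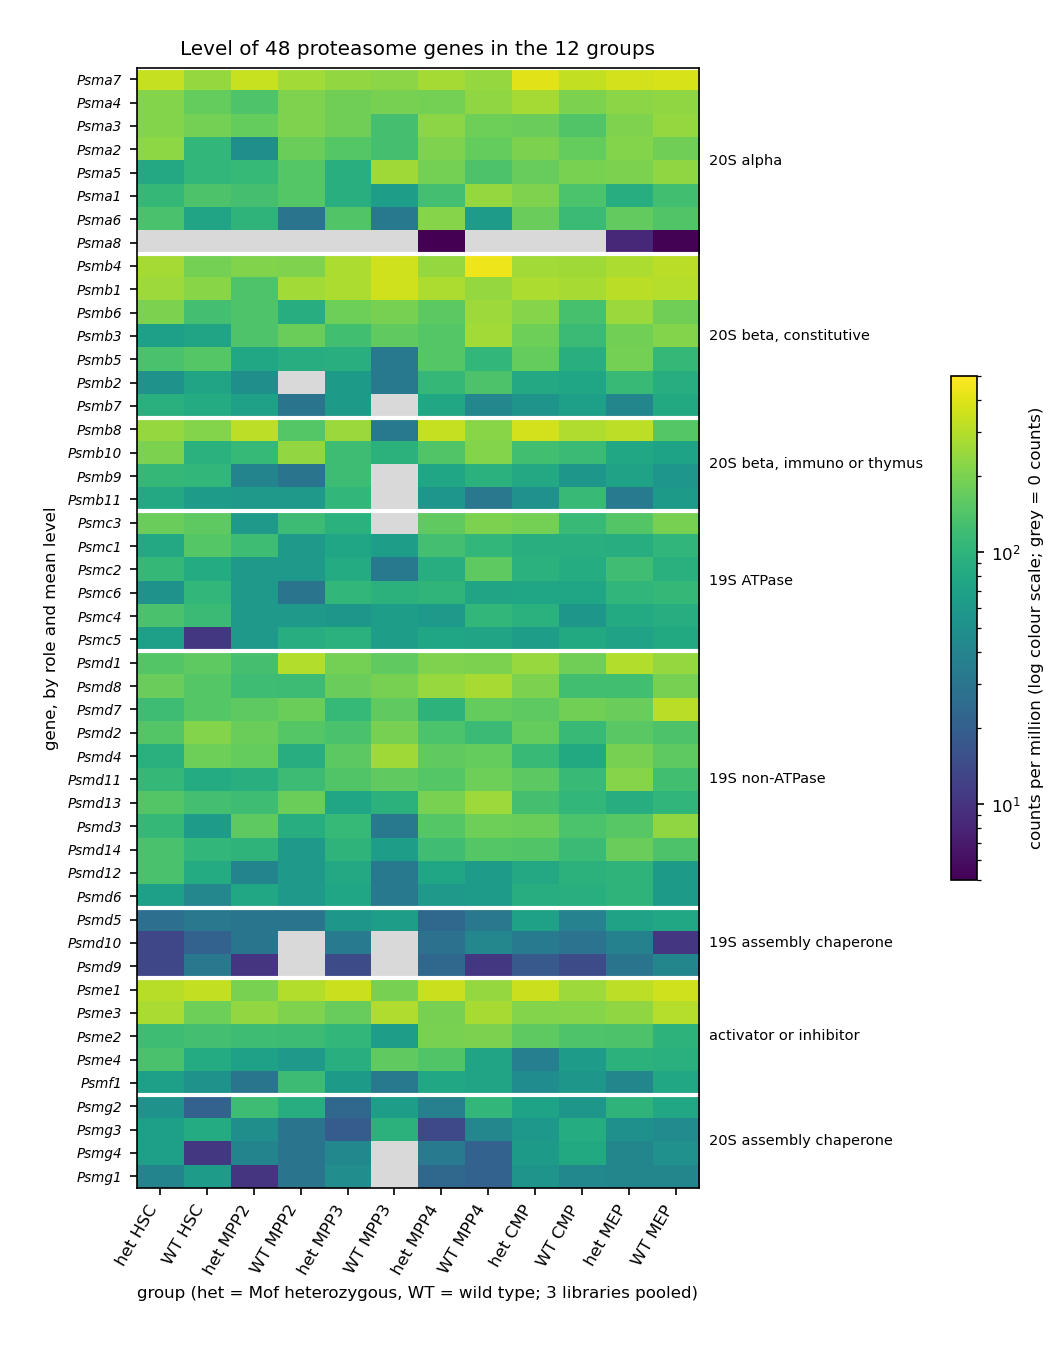
Level of each of the 48 proteasome genes (rows, grouped by role and sorted by mean level) in the 12 groups (columns, heterozygous left of wild type in each population), as CPM of 3 pooled libraries on a logarithmic colour scale. Psma7, Psme1, Psmb4, Psmb1 and Psmb8 are bright in nearly every group, the assembly chaperones are dark, and the grey cells, where 0 counts were read, lie along Psma8 and otherwise in wild-type MPP3 and wild-type MPP2, the shallow groups.

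Most members varied between replicate libraries about as much as counting alone would give. Over the 41 members with at least 100 counts, the spread of counts within groups divided by its Poisson value had a median of 1.12 (lowest 0.594), beside 1.23 over 3547 genes of that depth. Psma7 had the highest value and Psme3 the lowest.

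Summed over all 48 genes, pooled levels in HSC were 6180 CPM in heterozygous and 5425 CPM in wild-type cells. In MPP2 they were 5099 CPM in heterozygous and 5300 CPM in wild-type cells, and in MPP3 5640 CPM in heterozygous and 4983 CPM in wild-type cells. In wild-type cells these 3 sums were below those of the other 3 populations. MPP4 had 6558 CPM in heterozygous and 7007 CPM in wild-type cells. CMP had 6907 CPM in heterozygous and 5807 CPM in wild-type cells, and MEP had 6922 CPM in heterozygous and 6866 CPM in wild-type cells. The spread between libraries was large in some groups. Heterozygous HSC replicate 2, with 1577 gene counts, stood at 1268 CPM, beside 6632 and 5450 CPM in replicates 1 and 3. Its level rests on 1 count of Psmb11 and 1 of Psme1, so counting error alone is large there. Wild-type MPP4 replicate 3, at 3548 CPM, stood below replicates 1 and 2 (7860 and 7787 CPM), and that library also held 32982 CPM of mature neutrophil markers.

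**Figure D2:**
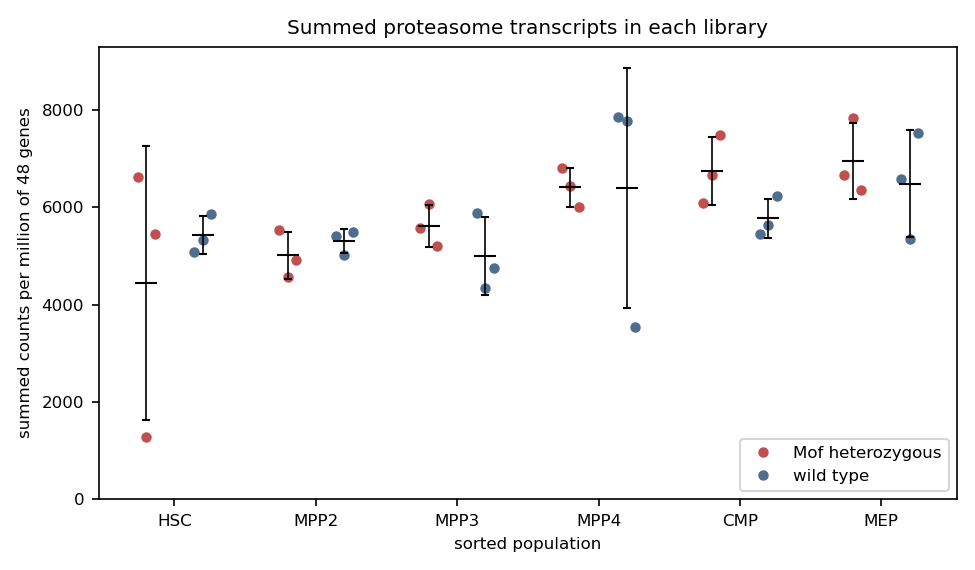
Summed CPM of the 48 proteasome genes in each library (points) by population, heterozygous (red) left of wild type (blue), with the mean and SD of 3 libraries. The genotypes overlap in every population, and 1 library each of heterozygous HSC (1268) and wild-type MPP4 (3548) lies far below its replicates. The HSC value rests on 1 count of Psmb11 and 1 of Psme1.

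As a mean of single libraries averaged over populations, the summed level was 135 CPM higher in heterozygous than in wild-type cells. This is below the pooled SD of 1224 CPM between libraries of a group, which describes single libraries and is not the error of the average. In HSC the library mean was lower in heterozygous cells (4450 CPM, against 5424 CPM), unlike the pooled level. There the shallow heterozygous replicate 2 (1268 CPM) weighed as much as the other libraries. The averaged difference was 1125 CPM with TMM scaling and 588 CPM without the 6 shallow libraries. It was 399.9 CPM without heterozygous HSC replicate 2, -47.0 CPM without heterozygous HSC replicate 1 and -103 CPM without wild-type MPP4 replicate 3. In CMP the pooled ratio of heterozygous to wild type was 1.19 (95% interval of counting error 1.11 to 1.28), from 1896 and 1207 counts, yet the single libraries overlapped, at 6085, 6665 and 7490 CPM in heterozygous cells against 5457, 5638 and 6229 CPM in wild-type cells.

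Across the 6 populations, averaged over both genotypes, no proteasome gene passed the test. Limma's F test, adjusted by Benjamini-Hochberg over all genes at 0.05, called 0 of 45 members tested, whereas 4.14% of all genes tested passed. At an unadjusted p under 0.05, 7 members (15.6%) stood beside 19.9% of all genes. On the recovered counts edgeR called 0 of 21 members tested and DESeq2 0 of 44, where 29.3% and 11.8% of all genes were called. At an unadjusted p under 0.05 edgeR had 3 members (14.3%, beside 40.2% of all genes) and DESeq2 5 (11.4%, beside 20.8%).

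The member nearest to a call across populations was Psmb2, a beta ring subunit without a proteolytic site (limma adjusted p = 0.0588). Its mean level was 122 CPM in MPP4, 100.04 CPM in MEP and 78.6 CPM in CMP, and 63.6, 47.1 and 24.9 CPM in HSC, MPP3 and MPP2. Psmb3, another non-catalytic beta subunit, ranged between 70.3 CPM in HSC and 207 CPM in MPP4 (adjusted p = 0.180). The alpha subunit Psma6 was lowest in MPP2 at 64.5 CPM and highest in MEP at 155 CPM (adjusted p = 0.170). Psmc3, a 19S ATPase, was lowest in MPP3 at 47.6 CPM and highest in MPP4 at 182 CPM (adjusted p = 0.184). With TMM scaling in place of the common total, limma called 6 members across populations (Psma6, Psmb2, Psmb3, Psmb8, Psmc3 and Psmd3) of 46 tested, beside 11.5% of all genes.

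Contrasts within a pool, where the libraries shared their sequencing, also gave no member by limma, edgeR or DESeq2. Limma called 0 of 45 members in CMP minus MEP (0.0154% of all genes called), in MPP4 minus MPP2 (0.0923%, of which 0.0769% higher), in MPP4 minus MPP3 (0.6%, of which 0.385% higher) and in MPP3 minus MPP2 (0.261%, of which 0.108% lower). At an unadjusted p under 0.05 limma had 0, 4, 9 and 3 members in these contrasts, beside 1.48%, 8.52%, 12.4% and 11.3% of all genes. The counts at that level were 1, 2, 4 and 0 of 21 members by edgeR, beside 9.12%, 12.2%, 20.5% and 9.92% of all genes. By DESeq2 they were 2, 1, 6 and 0, beside 5.74%, 11.4%, 12.5% and 1.86% of all genes. In MPP4 minus MPP3 all 9 had a positive difference, among them Psmd13 of the 19S lid, Psmb2, Psmb8 and Psme2. The median difference of the members there was 0.53 on the log2 scale, beside 0.20 for all genes. Psmd13 stood at 200 and 254 CPM in heterozygous and wild-type MPP4, and at 76.1 and 97.1 CPM in MPP3. Psme2, the beta chain of PA28, stood at 200 and 201 CPM in MPP4, and at 105 and 64.7 CPM in MPP3. Without wild-type MPP3 replicate 1, limma called both (differences of 2.37 and 1.91, adjusted p = 0.0117 and 0.0470). That library holds the only wild-type MPP3 counts of both genes (3 of Psmd13 and 2 of Psme2). These differences thus set MPP4 partly against 0 counts and are no measure of size. The share of all genes called in that fit was not worked out.

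Between genotypes, averaged over the 6 populations, limma called 0 of 46 proteasome genes, beside 0.0776% of all 6444 genes tested (0.0466% higher). At an unadjusted p under 0.05, 2 members (4.35%) stood beside 10.7% of all genes. The difference, heterozygous minus wild type on the log2(value + 1) scale, was positive for 34 of 46 members (73.9%), beside 67.3% of all genes, and its median was 0.18, beside 0.12. For 41 of 46 members the 95% interval lay within 1 log2 unit of 0 on either side, and the median distance from the estimate to either end was 0.504. On recovered counts edgeR called 1 of 21 members, Psmb8, where 1.9% of all genes were called (1.41% higher), and DESeq2 called 1 of 23, again Psmb8, where 3.51% were called.

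**Figure D3:**
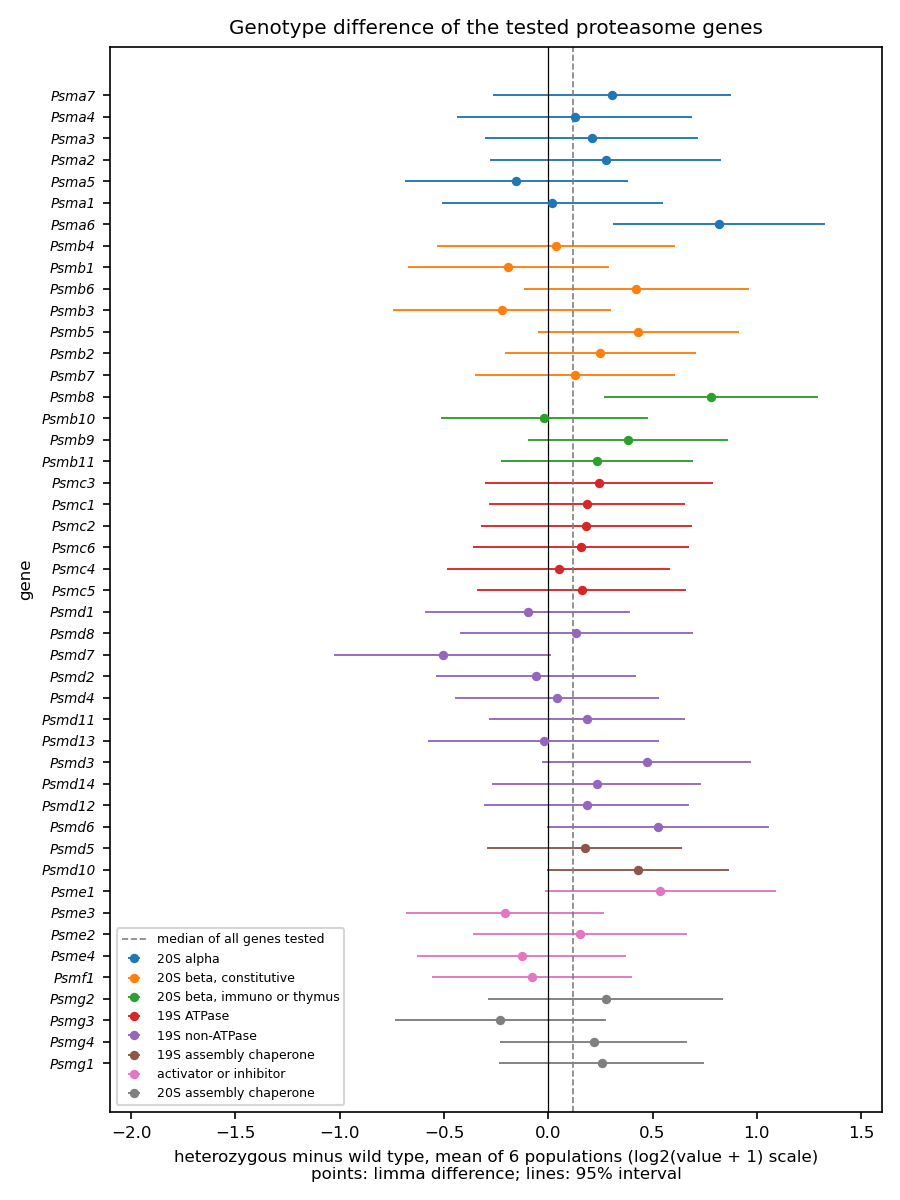
Difference between heterozygous and wild-type cells averaged over 6 populations, on the log2(value + 1) scale, for the 46 tested proteasome genes (points: limma estimate, lines: 95% interval, coloured by role). The points scatter around the median of all genes (dashed, 0.12), and the intervals of Psma6 and Psmb8 lie wholly above 0.

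Role by role, the medians of this difference lay between -0.08 and 0.31. All 6 ATPases had small positive differences (0.05 to 0.24, median 0.17). Of the 7 tested alpha subunits, 6 were positive (median 0.21), of the 7 constitutive beta subunits 5 (median 0.13) and of the 11 non-ATPase 19S subunits 7 (median 0.13). Of the 5 activators and inhibitor, 2 were positive, with a median of -0.08. Of the 4 immunoproteasome and thymus beta subunits 3 were positive (median 0.31), of the 4 chaperones of the 20S core 3 (median 0.24) and of the 2 tested 19S chaperones both. None of these members passed limma's test.

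The largest positive difference was that of Psma6, 0.82 (SE 0.254, limma adjusted p = 0.202), a subunit of the alpha ring encoded on chromosome 12 (55384222 to 55418454, plus strand, mm10). In HSC its level was 154, 0 and 93.2 CPM in heterozygous libraries, against 34.4, 85.5 and 98.1 CPM in wild-type libraries, and in MPP2 it was 101, 0 and 145 CPM against 0, 81.0 and 0 CPM. In MPP3 it was 85.1, 200.2 and 125.7 CPM in heterozygous libraries against 0, 0 and 47.99 CPM in wild-type libraries, and in MPP4 245, 215 and 146 CPM against 131, 26.2 and 0 CPM. The genotypes did not overlap in MPP3 and MPP4 and overlapped in HSC and MPP2. In CMP it was 97.4, 168 and 218 CPM in heterozygous libraries against 108, 132 and 105 CPM in wild-type libraries, and in MEP 169, 173 and 159.6 CPM against 70.4, 286 and 137 CPM, overlapping in both. Its pooled level was higher in heterozygous cells in 6 of 6 populations. Because Psma6 was picked for its large difference, this count is no separate support, and the share of all genes with 6 of 6 was not counted. The same limit holds for the counts of populations given for Psmb8 and Psmd7 below. In HSC the sign depended on pooling: limma's difference was negative for all 7 tested alpha subunits, Psma6 among them. The largest pooled ratio with more than 1 wild-type count was that of MPP4, 3.44 (95% interval of counting error 1.47 to 9.84). In edgeR without a filter on low counts, a setting added after seeing the data, Psma6 was called (difference 1.37, adjusted p = 0.0351), where 0.517% of all genes were called.

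Psmb8, the second largest positive difference, was 0.78 by limma (SE 0.255, adjusted p = 0.233) and 1.05 by edgeR's quasi-likelihood test (adjusted p = 0.0219), with a pooled level higher in heterozygous cells in 6 of 6 populations. In HSC this rests on 1 library, since the median library was lower in heterozygous cells (93.2 CPM, against 199 CPM in wild-type cells). It had there 308, 0 and 93.2 CPM in heterozygous libraries, against 172, 199 and 262 CPM in wild-type libraries, and in MPP2 352, 260.1 and 314 CPM against 387, 0 and 88.5 CPM. In MPP3 it had 238, 250.2 and 265 CPM in heterozygous libraries, against 0, 0 and 47.99 CPM in wild-type libraries, the only population in which the genotypes did not overlap. In MPP4 it had 371, 395 and 146 CPM in heterozygous libraries, against 339, 157 and 111 CPM in wild-type libraries. The CMP libraries stood close together, at 373, 325 and 396 CPM in heterozygous cells against 251, 330.1 and 275 CPM in wild-type cells. In MEP it had 194, 453 and 308 CPM in heterozygous libraries, against 106, 257 and 137 CPM in wild-type libraries, a pooled ratio of 2.12 (95% interval of counting error 1.37 to 3.37). Markers differed in MEP too: Cd34, used in the gate, stood at 188 CPM in heterozygous and 0 CPM in wild-type MEP, and Kit at 475 and 288 CPM. Limma called 2 of 6444 genes between genotypes in MEP, and 1 of them was Cd34, higher in heterozygous cells. Its difference was 3.71, set against 0 CPM in wild-type MEP, and that of Kit was 0.755. The part of this in the MEP differences of Psmb8 and other members was not tested.

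The Psmb8 call was not kept in every set of libraries. Without the 6 libraries below 15000 counts, a fit that also loses MPP2 as a comparison, edgeR gave 0.92 and no call (adjusted p = 0.273). The call was also lost without heterozygous HSC replicate 1 (0.82, adjusted p = 0.247), without wild-type MPP2 replicate 3 (1.01, adjusted p = 0.0563) and without wild-type MPP3 replicate 1 (0.998, adjusted p = 0.0773), and kept in the other 33 fits that left out 1 library. Among these, the fit without wild-type MPP3 replicate 3, which holds the only Psmb8 count of that group, gave 1.65, a value that sets 1 population against 0 counts and is no measure of size. Without the 8 libraries high in neutrophil or B cell markers it was lost as well (adjusted p = 0.110). That fit leaves wild-type MPP3 with 1 library, which has 0 Psmb8 counts, so its fitted difference of 2.06 depends on the prior count and is no measure of size, and the median over all genes was itself 0.77. This choice of libraries and the edgeR fits without 1 library or without shallow libraries were chosen after seeing the data. Beside this, the neutrophil marker S100a9 differed by -2.33 on the limma scale (adjusted p = 0.143), with 7 of 7 markers of that list negative. The 4 mature B cell markers were negative too, with Cd79b at -0.84 (adjusted p = 0.340). The part of these cells in the Psmb8 difference was not tested. An antisense gene, Gm20496, overlaps Psmb8, and strand use in counting is not given in the sources used here.

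**Figure D4:**
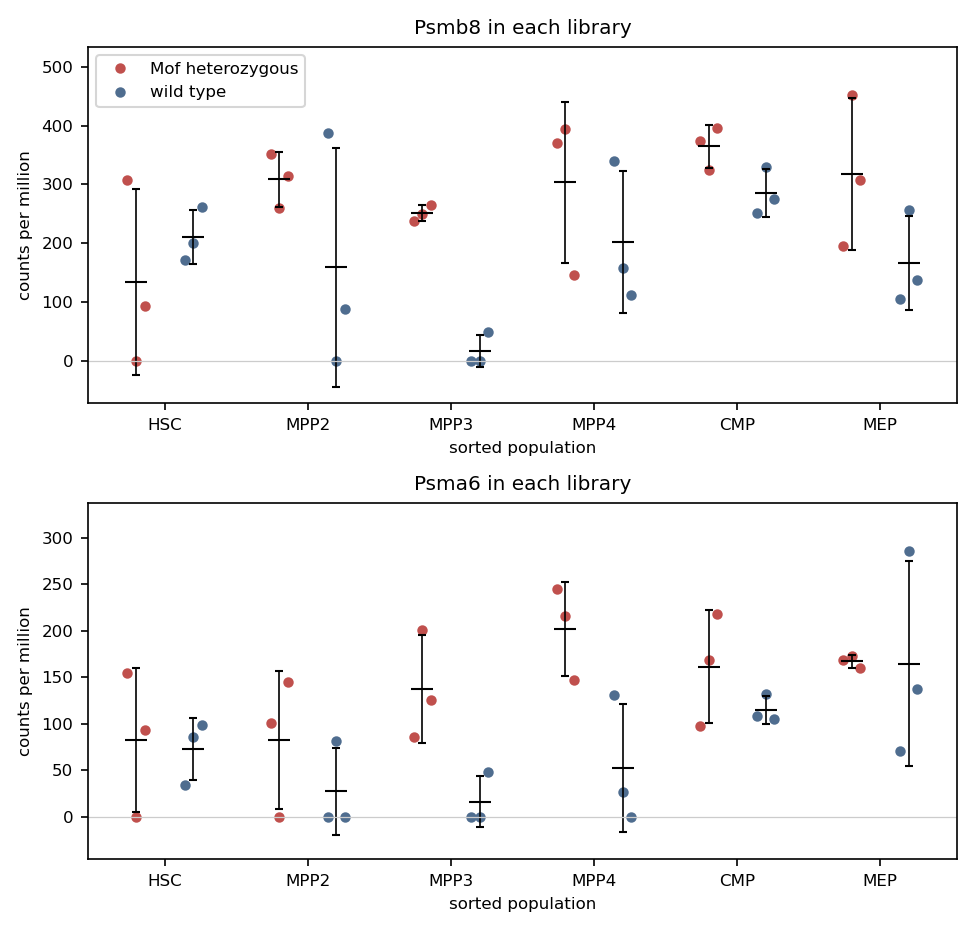
CPM of Psmb8 (top) and Psma6 (bottom) in each library by population, heterozygous (red) left of wild type (blue), with mean and SD of 3 libraries. Heterozygous libraries sit above wild-type ones for both genes in MPP3 and for Psma6 in MPP4, and the genotypes overlap elsewhere.

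Psmb8 lies on mouse chromosome 17 (34197721 to 34201454, plus strand) near Psmb9 and the peptide transporter gene Tap1, whose annotation overlaps Psmb9 on the opposite strand. The promoters of the immunoproteasome subunits Psmb8 and Psmb9 and of the constitutive subunits they replace, Psmb5 and Psmb6, are shown because they make up 2 of the 3 pairs whose balance was measured. The sequences come from RefSeq (GRCm38.p6) and run from 250 bases before to 50 bases after the RefSeq start. In the GENCODE annotation, which gave the gene coordinates, Psmb9 spans 34181987 to 34187764. The Psmb8 and Psmb9 sequences therefore lie wholly inside the annotated genes, downstream of their outermost starts. Capitals mark the core of the gamma-activated site (TTCNNNGAA) in Psmb8 and the antioxidant response element core (TGACNNNGC), which the Nfe2l1 and Nfe2l2 factors bind, in Psmb5 and Psmb6. Their positions are chr17:34197945-34198244 on the plus strand for Psmb8, chr14:54617946-54618245 on the minus strand for Psmb5, chr17:34187281-34187580 on the minus strand for Psmb9 and chr11:70525107-70525406 on the plus strand for Psmb6.
Psmb8: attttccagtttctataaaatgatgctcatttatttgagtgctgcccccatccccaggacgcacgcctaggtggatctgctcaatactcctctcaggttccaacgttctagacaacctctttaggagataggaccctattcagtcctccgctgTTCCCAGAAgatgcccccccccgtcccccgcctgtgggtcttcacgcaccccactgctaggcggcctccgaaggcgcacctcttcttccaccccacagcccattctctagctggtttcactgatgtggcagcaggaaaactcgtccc
Psmb5: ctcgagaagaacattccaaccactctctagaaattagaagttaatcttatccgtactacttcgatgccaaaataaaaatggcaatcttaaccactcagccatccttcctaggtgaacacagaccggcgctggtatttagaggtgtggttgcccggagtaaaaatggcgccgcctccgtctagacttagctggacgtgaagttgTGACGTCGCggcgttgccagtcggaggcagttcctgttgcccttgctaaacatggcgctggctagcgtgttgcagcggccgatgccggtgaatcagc
Psmb9: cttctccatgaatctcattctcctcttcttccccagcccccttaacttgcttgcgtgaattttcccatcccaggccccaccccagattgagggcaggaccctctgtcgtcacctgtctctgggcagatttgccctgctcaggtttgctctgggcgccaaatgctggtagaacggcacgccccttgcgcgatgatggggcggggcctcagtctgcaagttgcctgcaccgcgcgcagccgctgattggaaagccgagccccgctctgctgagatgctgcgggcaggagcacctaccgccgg
Psmb6: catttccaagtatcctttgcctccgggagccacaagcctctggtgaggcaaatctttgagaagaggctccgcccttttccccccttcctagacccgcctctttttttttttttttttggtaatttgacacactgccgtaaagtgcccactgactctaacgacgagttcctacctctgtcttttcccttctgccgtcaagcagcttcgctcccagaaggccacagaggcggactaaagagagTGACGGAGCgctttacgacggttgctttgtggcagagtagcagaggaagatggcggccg
Among the 40 members with a RefSeq promoter, both strands being searched, TGACNNNGC was in 6 (15%), beside 12.5% of 27025 promoters. The interferon-stimulated response element core, GAAA, any 2 bases and GAAA again, was in 5 (12.5%), Psme1 among them, beside 3.49%, and TTCNNNGAA in 3 (7.5%), Psmb8 among them, beside 8.47%. These are matches of letters and were not tested as binding sites.

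Counts of Psmb8, Psmb9 and Psmb10 made up 55.5% (exact 95% interval 53.0 to 58.1) of the counts of the 3 catalytic pairs over all libraries, 836 of 1505. By pair, Psmb8 made up 68.1% of Psmb8 and Psmb5, Psmb9 29.2% of Psmb9 and Psmb6, and Psmb10 65.5% of Psmb10 and Psmb7. Pseudogenes of Psmb5, Psmb6 and Psmb7 are annotated, and reads shared with them could not be told apart here. How well each 3' end is captured was not tested, so the share is a balance of counts and not of protein. In every pooled group the Psmb9 pair was the lowest of the 3 pairs. The share over all pairs was 56.3% in heterozygous cells (579 of 1029) and 54.0% in wild-type cells (257 of 476), with intervals of 53.2 to 59.3 and 49.4 to 58.5 that overlap. Averaged over populations the difference of the pooled shares was 4.15 percentage points. This is below the pooled SD of 8.78 points between libraries of a group, which describes single libraries and is not the error of the average. Most of the average came from MPP3, where the share was 59.5% in heterozygous cells and 36.4% in wild-type cells. The wild-type share there came from 4 of 11 counts, with an interval of 10.9 to 69.2. In HSC the share was 56.2% in heterozygous and 53.4% in wild-type cells, and in MPP4 58.9% and 56.8%. MPP2 went the other way, with 61.8% in heterozygous and 66.7% in wild-type cells. In MEP the share was 49.1% in heterozygous and 42.5% in wild-type cells, and in CMP, the other population of that pool, 56.7% in heterozygous and 61.5% in wild-type cells.

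**Figure D5:**
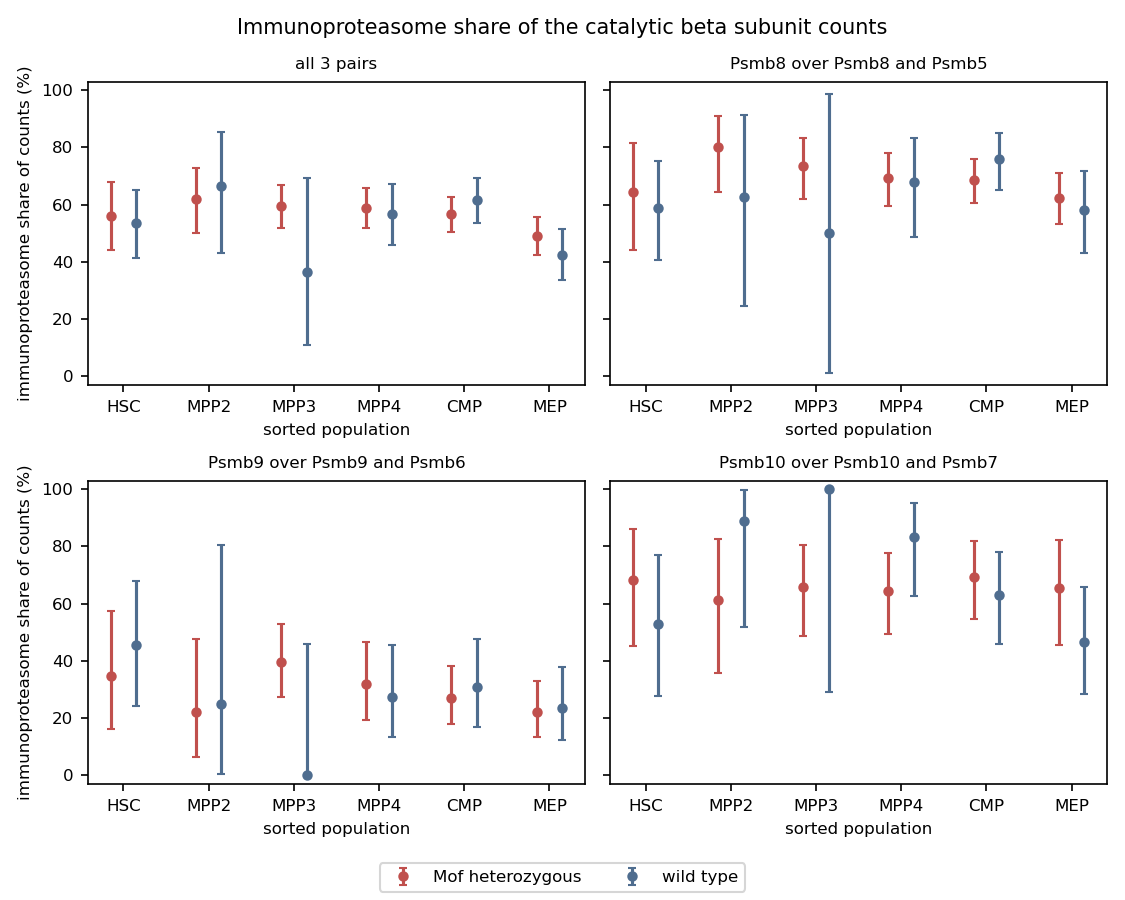
Immunoproteasome share of the catalytic beta counts in percent, for all 3 pairs and for each pair, by population, heterozygous (red) left of wild type (blue), with exact 95% binomial intervals of pooled counts. The Psmb9 pair lies below the Psmb8 and Psmb10 pairs, and the intervals of the genotypes overlap in every population.

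Of the other immunoproteasome members, Psmb9 had 119 CPM in heterozygous MPP3 against 0 counts in wild-type MPP3, and 70.8 and 56.7 CPM in heterozygous and wild-type MEP. Psmb10 had 200.2 CPM in heterozygous HSC against 94.99 CPM in wild-type HSC, and 109.6 CPM in heterozygous MPP2 against 236 CPM in wild-type MPP2. The differences of the constitutive partners were positive: Psmb5 differed by 0.43 and Psmb6 by 0.42 on the limma scale (adjusted p = 0.522 and 0.601), and Psmb7 by 0.13 (adjusted p = 0.911). Psme1 differed by 0.54 (adjusted p = 0.480), with 347 and 194 CPM in heterozygous and wild-type MPP3 but 317 and 355 CPM in MEP. Psme2 differed by 0.15 (adjusted p = 0.890).

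Among the largest negative differences, Psmd7, a lid subunit of the 19S cap that pairs with the deubiquitinase Psmd14, differed by -0.51 (limma adjusted p = 0.480). Its pooled level was lower in heterozygous cells in 6 of 6 populations, with 175 CPM in heterozygous MEP against 309 CPM in wild-type MEP and 97.5 against 169 CPM in MPP4. The chaperone Psmg3 (-0.23), Psmb3 (-0.22) and Psme3 (-0.21) had adjusted p-values of 0.815, 0.832 and 0.822. Psmd6, a subunit of the same lid as Psmd7, stood on the positive side at 0.53 (adjusted p = 0.468), with 100.01 and 61.8 CPM in heterozygous and wild-type MEP.

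Within single populations limma called 0 of 46 members in HSC, MPP2, MPP3, MPP4, CMP and MEP, where 0.0155%, 0.0776%, 0.31%, 0.031%, 0.031% and 0.031% of all genes were called, and edgeR and DESeq2 called none. At an unadjusted p under 0.05 the limma counts were 0, 1, 10, 2, 0 and 1 (beside 6.49%, 7.77%, 16.1%, 7.45%, 3.72% and 5.28% of all genes), those of edgeR 0, 0, 1, 0, 0 and 1 (beside 6.18%, 15.7%, 11.4%, 8.02%, 2.57% and 5.57%), and those of DESeq2 0, 2, 1, 2, 0 and 1 (beside 14.1% in MPP2 and 0.674% to 1.7% in the other populations). MPP3 held the most, 21.7% of members, and 37 of its 46 differences were positive (80.4%, beside 78.5% of all genes, with medians of 0.86 and 0.56). Markers differed there too: the 7 mature neutrophil markers summed to 69.9 to 1401 CPM in heterozygous MPP3 libraries and 4703 to 19168 CPM in wild-type MPP3 libraries, with 7 of 7 negative (median -2.95), and the 3 tested HSC markers were positive (median 2.06). Their part in the MPP3 differences was not tested. In HSC 6 of 46 were positive (median -0.50, beside -0.34), and without the shallow libraries 25 of 47 (median 0.09, beside 0.01). In MPP3 the medians of members and of all genes were then 0.29 and 0.16, with only replicate 3 of the wild-type libraries left. In MPP3 Psmb8 came nearest to a call, at 2.50 (SE 0.625, adjusted p = 0.0516), from 53 counts in heterozygous cells and 1 count in wild-type cells, a CPM ratio of 7.79 with an interval of 1.34 to 313. The 3 wild-type MPP3 libraries held 7304, 2764 and 20839 counts, so a count of 0 in them allows up to 411, 1085 and 144 CPM. In this population 14 of 46 members were higher in all heterozygous than in all wild-type libraries, beside 21.6% of all genes, and 2 (Psmd4 and Psme3) were lower, beside 1.8%. The next count was that of CMP, with 5 higher (Psma4, Psmc3, Psmd2, Psmd4 and Psmd5), beside 7.79% of all genes. The genotype difference was not shown to vary between populations: limma's interaction test called 0 of 46 members (0.031% of all genes), with 2 at an unadjusted p under 0.05 (8.74% of all genes), Psmb8 and Psmb11, and edgeR and DESeq2 called none and had none at that level.

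Among genes that work with the proteasome, no gene of the 5 lists passed the limma test between genotypes (0.0776% of all genes passed). Of the 10 tested genes whose proteins bind or assemble the proteasome, 5 were positive, with a median difference of 0.02. The assembly factor Pomp, which matures the 20S core, stood at 0.37 (adjusted p = 0.669). Of 9 tested genes of the Nfe2l1 route, 8 were positive (median 0.16), and Nfe2l1 itself stood at 0.25 (adjusted p = 0.782). All but 2 of the 11 genes for ubiquitin, its activating enzymes and shuttle receptors were positive (median 0.20), with Rad23b at 0.61 (adjusted p = 0.405). Of 11 genes of class I peptide loading 5 were positive (median -0.04), with Tap1, the neighbour of Psmb9, at 0.26 (adjusted p = 0.781). Of 10 tested interferon response genes 4 were positive (median -0.02), with Irf1 at 0.02 (adjusted p = 0.990). Across all genes tested the median was 0.12.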

How the data were processed

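Frozen sorted cells were made into CEL-Seq2 libraries, per the labels' protocols. The submitters' processing notes name mm10 and BWA 0.6.2-r126. The counter, the gene annotation, strand use and the handling of molecular identifiers were not given in the sources used here. Each deposited table holds a signal, which the values show to be gene counts that the authors scaled by a factor per library. Dividing a column by its smallest positive value gave whole numbers for 100% of values (within 0.01), and these recovered counts, without the 92 spike-in transcripts, gave the CPM. In the wild-type MEP table, names were missing from 92 rows and the rest were shifted, so names were taken by position. The rank correlation of that table with wild-type CMP over genes was then 0.902, against 0.352 with names as deposited.

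Because the files hold normalised values, limma 3.58.1 (R 4.3.3, trended variance) on log2(value + 1) was the test, over all 36 libraries with 1 coefficient per group, for genes whose mean value was 1 or more (6444 for genotype, 6501 for populations), with Benjamini-Hochberg adjustment at 0.05. This scale understates changes of low genes. Its differences also moved with the shallow libraries for genes at large. The median over all genes was -0.34 in HSC and 0.56 in MPP3, and 0.01 and 0.16 without the 6 shallow libraries. Population tests used counts rescaled to a common total of 41227. edgeR 4.0.16 (quasi-likelihood, TMM) and DESeq2 1.42.0 were alternatives on recovered counts. Limma and edgeR were also run on simulated counts with 1 dispersion for all genes and no population differences. Only genes of higher count were changed there, so that run does not show what is missed among low members. Intervals of counts and shares are exact at 95%, and a count of 0 allows up to 3 counts. Gene coordinates come from GENCODE vM21, whose build is mm10.

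Members, roles, gene lists and tests were chosen with earlier results of these data known. The text names members called in a comparison, the 8 of highest mean level, the catalytic pairs with Psme1 and Psme2, the 4 largest differences in each direction, the 4 smallest p-values across populations and the untested members. Other members named, and the pathway genes named, were chosen after their values were seen.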

Additional observations from a re-analysis of the deposited data

Results flagged for a closer look

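For Psmb7, a constitutive catalytic beta subunit, the genotype difference took opposite directions in 2 populations. In MPP3 it had 34.0, 37.5 and 112 CPM in heterozygous libraries, all above wild-type libraries, where 0 counts were read in all 3. In MEP it had 64.8, 39.9 and 22.8 CPM in heterozygous libraries, all below wild-type libraries at 106, 85.7 and 68.4 CPM. The MPP3 difference minus the MEP difference was 2.13 on the log2(value + 1) scale. Psmb7 was picked for this pattern, and the share of all genes with such a reversal is not given here. In limma's interaction test it was not among the members with an unadjusted p under 0.05. The difference between these 2 populations was not tested as such, and a count of 0 in the wild-type MPP3 libraries allows up to 411, 1085 and 144 CPM, which is above the heterozygous levels.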

How the results depend on the processing

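No paired analysis was possible because the tables number libraries by barcode, and no number occurs in more than 1 group. The interaction of genotype with population gave 0 members under every setting run. For the genotype average, edgeR with TMM or RLE scaling and DESeq2 gave 1 member (Psmb8) and edgeR without a filter, added after seeing the data, gave 2 (0.517% of all genes). Within populations the limma count of 0 became 4 with a pseudocount of 0.1 (Psmb8, Psmb9, Psmb11 and Psmc3 in MPP3, each with 0 or 1 count in wild-type MPP3), where 3.65% of all genes were called. Across populations it became 6 with TMM scaling (11.5% of all genes), 3 without the 6 shallow libraries (10.9%), and 4 in edgeR without a filter (8.31%). Within pools it became 2 without the shallow libraries and 1 in edgeR without a filter, in MPP4 minus MPP3 (3.0% and 1.36% of all genes).

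Leaving out 1 library gave 0 to 1 members for the genotype average (1, Psmb8, without heterozygous HSC replicate 2), 0 to 3 within populations, 0 to 0 for the interaction, 0 to 1 across populations and 0 to 2 within pools (2 without wild-type MPP3 replicate 1). Within populations Psmb8 in MPP3 was called without any 1 of 10 libraries: heterozygous HSC replicates 1, 2 and 3 and wild-type HSC replicate 3, MPP2 replicates 1, 2 and 3, MPP3 replicate 3, MPP4 replicate 3 and MEP replicate 2. Across populations Psmb2 was called without heterozygous HSC replicate 1 or 2 or wild-type MPP3 replicate 3, and Psmd13 without wild-type MPP3 replicate 1. For the fits that left out 1 library the share of all genes called was not worked out. These calls therefore cannot be read as particular to proteasome genes.

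Without the 8 libraries high in neutrophil or B cell markers, a choice made after seeing the data, limma called 7 members within populations (all in MPP3, with 8.24% of all genes), 3 across populations (11.3%) and 7 within pools (6 in MPP4 minus MPP3, with 7.8%), and edgeR 1 across populations (Psmb4, with 16.1%). That fit leaves wild-type MPP3 with 1 library of 2764 counts, which is assumed to vary like the other groups. The sign of 3 uncalled members turned in some fits: Psmb3 (0.036 in edgeR without a filter, 0.027 in edgeR without shallow libraries, 0.055 and 0.87 in limma and edgeR without the 8 libraries), Psme3 (0.12 in edgeR without a filter, 0.17 in edgeR without the 8 libraries) and Psmg3 (0.060 in limma without them). The median of all genes was 0.33, 0.12, 0.17 and 0.77 in these 4 fits, so apart from Psmb3 at 0.87 these values were still below it.

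The difference in summed level, as a mean of single libraries, was 135 CPM. It was 1125 CPM with TMM scaling, 588 CPM without shallow libraries and -103 to 399.9 CPM when 1 library was left out. The averaged difference in pooled immunoproteasome share, most of it from MPP3, was 4.15 points, and 1.88 to 4.90 points when 1 library was left out. Depth limits what can be read: in the 6 shallow libraries most members have fewer than 3 counts, and the 95% interval of a genotype difference reached, at the median, 0.504 log2 units to either side.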
